A study of Homo sapiens with 4 samples.

Results

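The genes described here make cholesterol and fatty acids or control their making. The set holds 31 genes chosen by name, with earlier results of these data known. They are 18 enzymes from acetyl-CoA to cholesterol, 5 genes of sterol sensing and transport, and 8 genes of fatty acid synthesis, elongation and desaturation. All 31 were found among the 34500 genes of the tables and all 31 were among the 14774 with enough counts for a test. RNA was sequenced from MCF10A, a human breast epithelial line that grows indefinitely without forming tumours, kept in medium with horse serum, insulin, epidermal growth factor, hydrocortisone and cholera toxin. Every library is labelled as carrying a scramble shRNA, a hairpin with no intended target. The control libraries received no TGF-β1 (n = 2), and the treated libraries received TGF-β1 at 5 ng/ml for 1.5 h (n = 2). The labels number the libraries 1 and 2 within each group.

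Cells make cholesterol from acetyl-CoA through mevalonate and squalene, and make fatty acids from the same acetyl-CoA through malonyl-CoA. The transcription factors SREBP-1 and SREBP-2, encoded by SREBF1 and SREBF2, switch on both pathways. When sterols are scarce, SCAP carries the SREBP precursors from the endoplasmic reticulum to the Golgi, where they are cleaved into active factors. INSIG1 holds SCAP back when sterols are plentiful and is itself an SREBP target, so its messenger RNA is often read together with those of the enzymes.

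The libraries differed by replicate number in ways the labels do not describe. Their estimated counts totalled between 35737659 and 40792300. PHF8, a histone demethylase named in the study's protocol, stood at 7.05 TPM in control replicate 1 and 6.32 TPM in TGF-β1 replicate 1, against 1.08 and 1.16 TPM in the libraries numbered 2, although all 4 are labelled alike as scramble shRNA. It was 5.10-fold lower (adjusted p = 0.000792, edgeR) in the libraries numbered 2, a difference the shared label does not describe. TPM is a level per transcript length, scaled to the same total in every library. Ribosomal protein genes took 7.42% to 7.45% of gene counts in the libraries numbered 1 and 9.50% to 9.76% in those numbered 2. The labels call the libraries biological duplicates but do not say what a replicate number stands for, and both libraries of a number may come from 1 culture. Whether the libraries labelled replicate 2 came from the same cells as those labelled replicate 1 was not tested, and this limits every comparison of the numbers below. The p-values measure only the spread between these libraries.

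Upstream sequences are shown for 6 genes so that 4 that fell can be set beside 1 that was not called and 1 that rose. HMGCS1, INSIG1, MVD and IDI1 were lower in the libraries numbered 2, SREBF2 was not called, and ACACA was higher. The stretches come from the RefSeq promoter table on GRCh38.p14 and are trimmed to lie before the gene's annotated starts. They run 5′ to 3′ on the gene's strand, and capitals mark the CCAAT box (CCAAT or ATTGG) and the core of the sterol regulatory element (CACNCCAC or GTGGNGTG). HMGCS1 is at chr5:43313513-43313662 (minus strand), INSIG1 at chr7:155297628-155297775 (plus strand), MVD at chr16:88663162-88663341 (minus strand), IDI1 at chr10:1049171-1049369 (minus strand), SREBF2 at chr22:41832855-41833078 (plus strand) and ACACA at chr17:37359122-37359346 (minus strand). The first 5 lie outside and directly before the annotated gene. The ACACA stretch lies before the start of its most abundant transcript and inside the span of longer ones.
HMGCS1: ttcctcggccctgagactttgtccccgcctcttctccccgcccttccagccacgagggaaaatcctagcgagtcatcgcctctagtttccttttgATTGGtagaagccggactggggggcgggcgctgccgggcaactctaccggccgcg
INSIG1: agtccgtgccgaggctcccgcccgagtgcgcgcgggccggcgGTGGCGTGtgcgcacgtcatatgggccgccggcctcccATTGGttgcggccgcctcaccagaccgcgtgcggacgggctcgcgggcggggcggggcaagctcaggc
MVD: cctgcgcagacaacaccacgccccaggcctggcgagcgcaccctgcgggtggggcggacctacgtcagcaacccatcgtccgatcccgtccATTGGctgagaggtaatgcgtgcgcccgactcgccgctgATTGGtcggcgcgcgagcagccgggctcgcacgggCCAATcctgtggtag
IDI1: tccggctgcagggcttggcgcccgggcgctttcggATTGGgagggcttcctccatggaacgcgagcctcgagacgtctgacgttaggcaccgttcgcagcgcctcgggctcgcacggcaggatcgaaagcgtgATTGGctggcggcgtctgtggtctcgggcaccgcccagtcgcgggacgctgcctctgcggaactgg
SREBF2: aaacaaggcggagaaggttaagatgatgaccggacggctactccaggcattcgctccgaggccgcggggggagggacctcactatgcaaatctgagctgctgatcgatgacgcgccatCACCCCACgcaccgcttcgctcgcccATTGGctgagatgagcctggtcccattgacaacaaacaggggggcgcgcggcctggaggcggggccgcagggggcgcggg
ACACA: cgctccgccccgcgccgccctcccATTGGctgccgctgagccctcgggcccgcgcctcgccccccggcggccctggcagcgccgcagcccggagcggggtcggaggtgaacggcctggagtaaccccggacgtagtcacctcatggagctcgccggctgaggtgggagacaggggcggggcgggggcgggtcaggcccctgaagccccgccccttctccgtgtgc

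Across the 27 members found in that table, the 250 bases before the start were searched on both strands for 4 motifs. The CCAAT box occurred in 19 of 27 members, and in 32.01% of all 35116 windows of that length. These windows cover the whole promoter table, not only genes tested here, so their shares are not a matched background for the members. It was present in 15 of the 19 members called lower in the libraries numbered 2 and in 4 of the 8 others. The sterol regulatory element core was found in 4 members, SC5D, SREBF2, INSIG1 and SCD, and in 4.87% of all windows, with 2 of the 19 and 2 of the 8. The GC box (GGGCGG or CCGCCC) was present in 25 members, 17 of the 19 and 8 of the 8, against 42.64% of windows. The E-box (CACGTG, the same on both strands) was present in 3 members, 2 of the 19 and 1 of the 8, against 6.34%. A match of letters is a description of the window, not a measured binding site. Matches of different motifs that overlap were each counted.

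The main difference in these genes lay between the replicate numbers. In the libraries numbered 2, 22 of 31 members were lower and 2 were higher by edgeR's quasi-likelihood test with Benjamini-Hochberg adjustment at 0.05 over all genes tested. By the same test 37.4% of all genes were called, 21.0% lower and 16.4% higher, so many genes outside the set were called too. The members were chosen with earlier results of these data known. Their counts beside these shares describe the libraries and are no independent check. The median log2 fold change of the 31 members was -0.50, and that of all genes tested was 0.01. Both libraries numbered 2 lay below both numbered 1 for 23 members and above for 4, while 36.6% of all genes lay below and 35.9% above. Summed over the 18 enzymes of the sterol arm, the level was 3447 TPM in control replicate 1 and 2689 TPM in TGF-β1 replicate 1, against 1759 and 1675 TPM in the libraries numbered 2. The sum over the 8 fatty acid genes was 934 and 768 TPM against 684 and 649.55 TPM. Among the sensing and transport genes the sums were 269 and 253 TPM against 215 and 224 TPM, the smallest separation of the 3 groups.

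**Figure D1:**
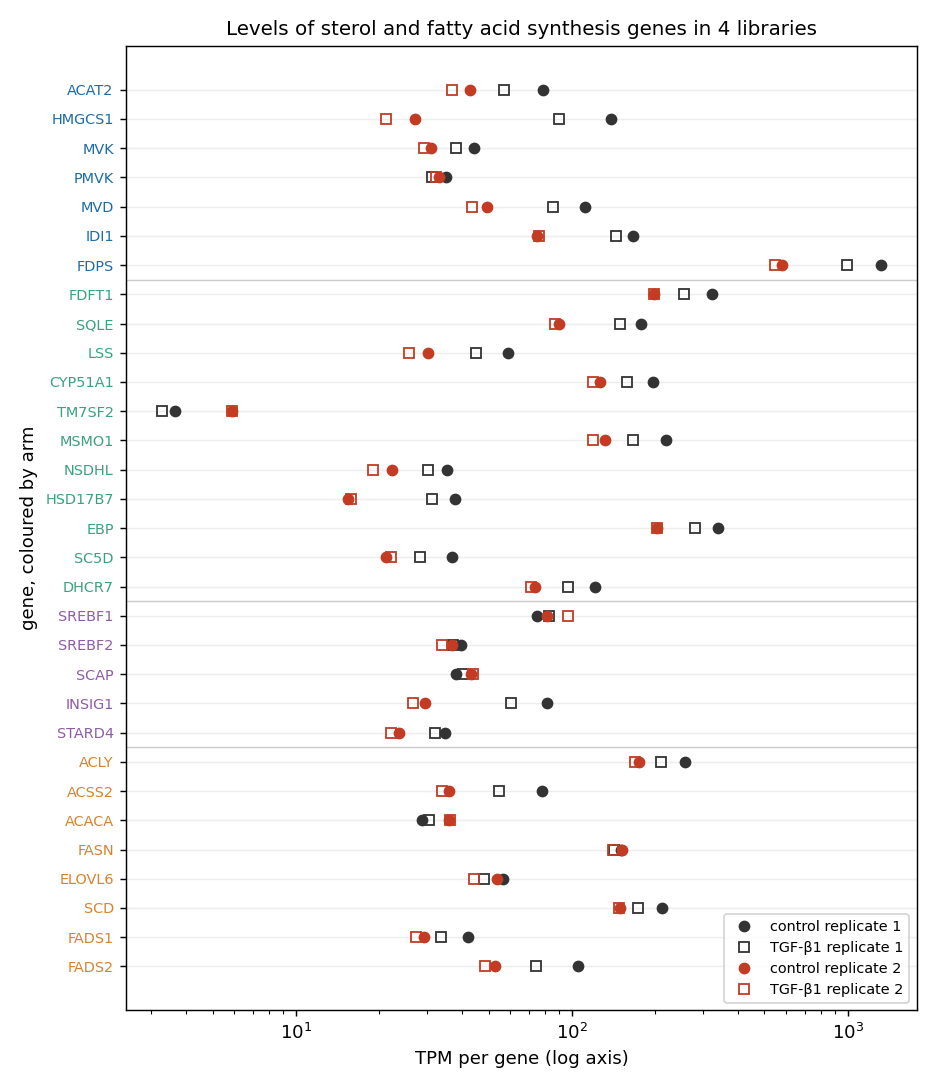
TPM of each of the 31 genes (log axis) in the 4 libraries, with filled circles for controls, open squares for TGF-β1, black for replicates 1 and red for replicates 2. For most genes the red symbols sit to the left of the black ones, widest apart for HMGCS1. PMVK, FASN, SREBF2 and SCAP lie close together, with the red symbols of SCAP just to the right. TM7SF2 and ACACA are reversed.

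The first steps, from acetyl-CoA to farnesyl diphosphate, held the largest fall, that of HMGCS1. Of 7 mevalonate enzymes 6 fell, beside 21.0% of all genes, and PMVK was not called, with a median log2 fold change of -0.99. HMGCS1, which condenses acetyl-CoA with acetoacetyl-CoA, stood at 139 TPM in control replicate 1 and 89.8 TPM in TGF-β1 replicate 1, against 27.0 and 21.3 TPM in the libraries numbered 2. It was 4.91-fold lower (log2 -2.30 ± 0.23 SE, adjusted p = 0.00266, n = 2 per number, edgeR), the widest separation among the 31. MVD, which makes isopentenyl diphosphate, was at 112 and 85.7 TPM against 49.4 and 43.5 TPM, 2.45-fold lower (adjusted p = 0.00385, edgeR). For these genes the lowest library numbered 1 was still well above the highest numbered 2.

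IDI1, the isomerase that turns isopentenyl into dimethylallyl diphosphate, measured 167 and 145 TPM against 75.2 and 75.9 TPM, a log2 fold change of -0.99 ± 0.08 (SE). FDPS, which joins these units into farnesyl diphosphate, was the most abundant member at 1317 and 997 TPM against 578 and 547 TPM, a log2 fold change of -1.01 ± 0.13 (SE). ACAT2, the cytosolic thiolase of the first step, was at 78.9 and 57.1 TPM against 42.7 and 37.0 TPM. Neither library numbered 2 reached the lower of those numbered 1 for any of these 3 genes. MVK, mevalonate kinase, was at 44.3 and 38.1 TPM against 30.9 and 29.3 TPM, a smaller fall of 0.39 on the log2 scale. PMVK, the next kinase in the same chain, was at 34.9 and 31.2 TPM against 33.2 and 32.3 TPM. Its libraries overlapped, and its log2 fold change was 0.04 ± 0.07 (SE, adjusted p = 0.686, edgeR), beside neighbours on either side of the pathway that fell.

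From squalene to cholesterol, 10 of 11 enzymes fell and TM7SF2 rose, beside 21.0% and 16.4% of all genes. The median log2 fold change was -0.55. HSD17B7, a sterol keto-reductase, moved most, from 37.7 and 31.1 TPM to 15.5 and 15.8 TPM (log2 -1.12 ± 0.12 SE, adjusted p = 0.00332, edgeR). LSS, which folds squalene epoxide into lanosterol, went from 58.6 and 45.0 TPM to 30.3 and 25.8 TPM, a log2 fold change of -0.90. SQLE, the epoxidase before it, went from 179 and 150.4 TPM to 90.3 and 86.9 TPM, a log2 fold change of -0.85. These 3 were the enzymes of this stretch with the largest fall, and their groups did not overlap.

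NSDHL, a sterol dehydrogenase, was at 35.3 and 30.3 TPM against 22.4 and 19.0 TPM. DHCR7, which makes cholesterol in the last reduction, was at 121 and 97.1 TPM against 73.5 and 71.1 TPM. EBP, a sterol isomerase, was at 341 and 280.1 TPM against 205 and 203 TPM. The falls of these 3 lay between 0.55 and 0.62 on the log2 scale. MSMO1, a methylsterol oxidase, was at 219.6 and 166 TPM against 132 and 119.6 TPM. CYP51A1, lanosterol demethylase, was at 198 and 159 TPM against 127 and 119.9 TPM. FDFT1, squalene synthase at the branch point, was at 324 and 255 TPM against 199.6 and 199 TPM. SC5D, a sterol desaturase, was at 37.0 and 28.2 TPM against 21.3 and 22.1 TPM, and closes the group with a fall of 0.47. All 4 genes fell by between 0.47 and 0.52 on the log2 scale, with the libraries numbered 1 apart from those numbered 2 in each.

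TM7SF2, a sterol reductase acting after CYP51A1, went the other way. It was at 3.66 and 3.29 TPM in the libraries numbered 1 and at 5.89 and 5.87 TPM in those numbered 2, 1.81-fold higher (log2 0.86 ± 0.16 SE, adjusted p = 0.0145, edgeR). This is the least abundant member, with 102 to 196 estimated counts, and VPS51 overlaps it on the same strand. The call was lost without control replicate 2 (adjusted p = 0.0675, edgeR) and without TGF-β1 replicate 1 (adjusted p = 0.0625, edgeR), and with DESeq2 and treatment as a term.

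The sensors divided. INSIG1, the sterol-dependent brake on SCAP, stood at 81.7 and 60.5 TPM in the libraries numbered 1 and at 29.5 and 26.7 TPM in those numbered 2, 2.46-fold lower (log2 -1.30 ± 0.15 SE, adjusted p = 0.00349, edgeR). STARD4, a carrier of cholesterol between membranes, was at 34.8 and 32.0 TPM against 23.6 and 22.2 TPM, a log2 fold change of -0.50 ± 0.07 (SE). Both fell with no overlap between the numbers. The genes for the factors themselves were not called. SREBF2, the sterol arm's factor, was at 39.8 and 37.3 TPM against 36.9 and 33.9 TPM, with a count-based log2 fold change of 0.04 ± 0.06 (SE, adjusted p = 0.627, edgeR). SREBF1 was at 74.9 and 82.9 TPM against 81.3 and 97.0 TPM, a log2 fold change of 0.18 ± 0.06 (SE, adjusted p = 0.0682, edgeR). SCAP was at 38.3 and 40.5 TPM against 43.3 and 43.9 TPM, a log2 fold change of 0.16 ± 0.05 (SE, adjusted p = 0.0644, edgeR). With treatment as a term in the model, SREBF1 and SCAP passed as higher (adjusted p = 0.0191 and 0.0324, edgeR). Messenger RNA does not show how much of either SREBP was cleaved.

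The fatty acid genes were mixed. Of 8, 4 fell, ACACA rose and 3 were not called, with a median log2 fold change of -0.35. Among all genes 21.0% were called lower and 16.4% higher. ACSS2, which makes acetyl-CoA from acetate, was at 78.3 and 54.5 TPM against 36.1 and 34.0 TPM (log2 -0.94 ± 0.17 SE, adjusted p = 0.0124, edgeR). FADS2, the first desaturase for polyunsaturated fatty acids, was at 106 and 74.5 TPM against 52.8 and 48.4 TPM, a log2 fold change of -0.75. FADS1, the desaturase that follows it, was at 42.3 and 33.7 TPM against 29.1 and 27.3 TPM, a log2 fold change of -0.41. These genes lie head to head and overlap on opposite strands, and whether the authors' counting used strand is not given in the sources used here. ACLY, which makes acetyl-CoA from citrate and feeds both arms, was at 258 and 211 TPM against 175 and 170.0 TPM, a log2 fold change of -0.38 (adjusted p = 0.0406, edgeR).

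ACACA, the carboxylase that makes malonyl-CoA and commits carbon to fatty acids, was at 28.7 and 30.4 TPM in the libraries numbered 1 and at 35.9 and 36.3 TPM in those numbered 2, 1.46-fold higher (log2 0.55 ± 0.08 SE, adjusted p = 0.00594, edgeR). FASN, the synthase that uses malonyl-CoA, was at 152 and 142 TPM against 152 and 141 TPM. Its log2 fold change was 0.04 ± 0.06 (SE, adjusted p = 0.632, edgeR), and its libraries overlapped. SCD, which makes monounsaturated fatty acids, was at 213 and 174 TPM against 149 and 148 TPM without overlap, but missed the threshold (log2 -0.31 ± 0.10 SE, adjusted p = 0.0671, edgeR). DESeq2 called SCD lower (adjusted p = 0.00478). ELOVL6, which lengthens palmitate, ranged from 44.2 to 56.4 TPM with overlap and a log2 fold change of -0.13 ± 0.08 (SE, adjusted p = 0.272, edgeR).

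**Figure D2:**
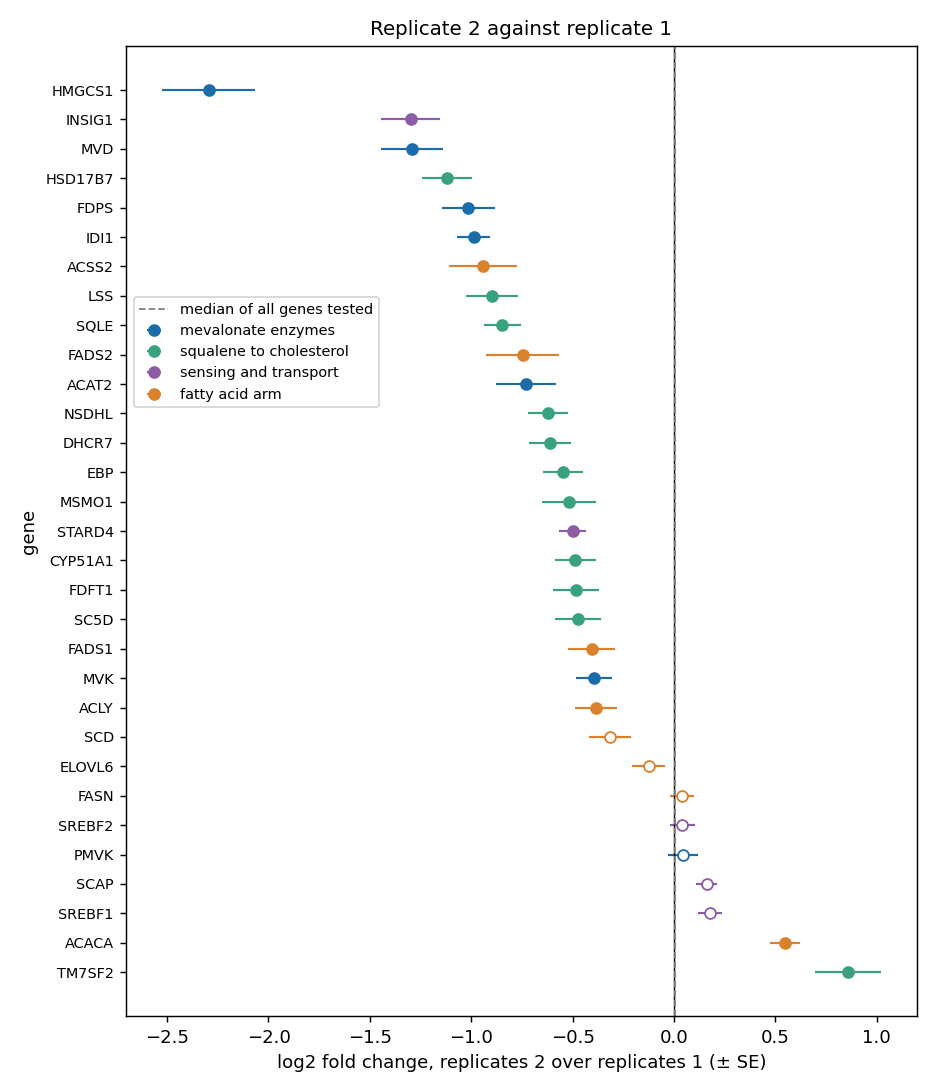
Log2 fold change of each gene, libraries numbered 2 over libraries numbered 1 (edgeR, n = 2 per number), with bars for ± 1 SE, filled points for genes past the adjusted threshold of 0.05 and open points for the others. HMGCS1 at -2.30 stands apart at the low end, TM7SF2 at 0.86 is at the high end, and the dashed line at 0.01 is the median of all genes tested.

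How many of these calls held depended on which libraries were used. Without control replicate 2, 10 members were called lower, beside 11.9% of all genes, and without TGF-β1 replicate 2, 12 were, beside 12.8%, against 22 with all 4 libraries. Calls over all genes in either direction dropped as well, from 5524 to 3018 and 3109. The 4 falls of the fatty acid arm were lost in both cases. Of the 22, 10 were called lower in all 4 fits that each left out 1 library: HMGCS1, MVD, IDI1, FDPS, SQLE, LSS, NSDHL, HSD17B7, INSIG1 and STARD4. Among all genes, 10.3% were called lower in all 4. Of the 2 that rose, ACACA was called in all 4. With all libraries, FADS1, close to the threshold in the main test (adjusted p = 0.0468, edgeR), lost its call with no low-count filter (0.0503), with at least 50 counts (0.0563), with the length offset (0.0722) and with limma on log2(TPM + 1) (0.0684). ACLY lost it with at least 50 counts (adjusted p = 0.0502, edgeR). SC5D lost it with the length offset (adjusted p = 0.0504, edgeR). DESeq2 with treatment as a term did not call FDFT1 (adjusted p = 0.0890), ACLY (0.153) or TM7SF2 (0.0864).

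The replicate difference was present with and without TGF-β1, in libraries that are not shared. Between the controls, 27 of 31 members were lower in replicate 2, beside 49.5% of all genes, with a median log2 difference of -0.65. Between the TGF-β1 libraries, 23 of 31 were lower, beside 50.6% of all genes, with a median of -0.35. For HMGCS1 the log2 difference was -2.45 in controls and -2.08 after TGF-β1. INSIG1 differed by -1.42 in controls and -1.15 after TGF-β1. FADS2 differed by -1.01 in controls and -0.44 after TGF-β1. With 1 library per treatment and number, whether the difference varied with treatment could not be tested.

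**Figure D3:**
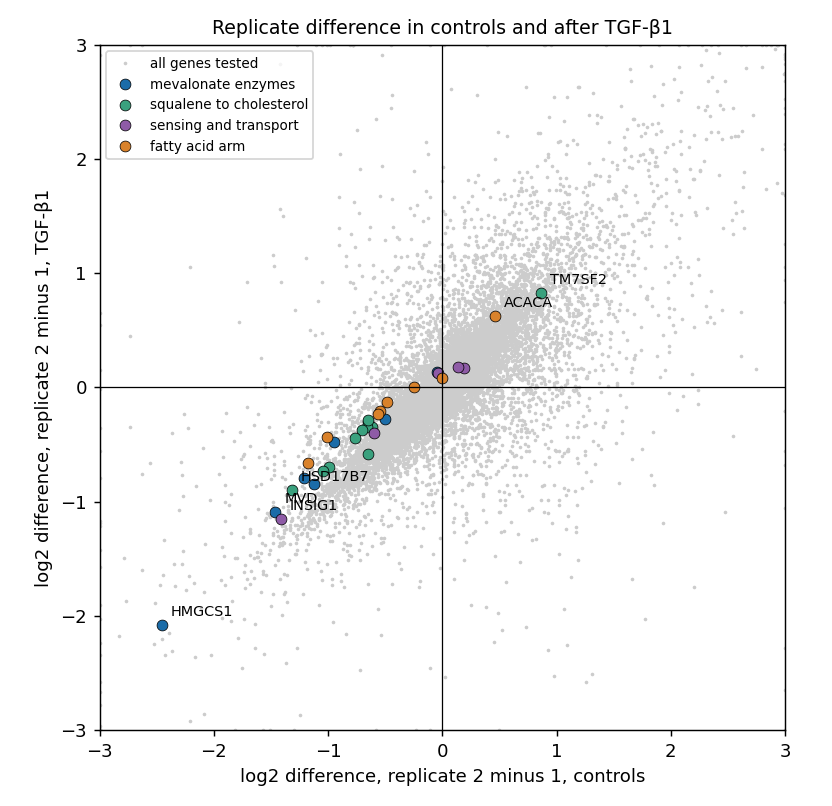
Each point is a gene, with the log2 difference of replicate 2 minus replicate 1 among controls (x) and among TGF-β1 libraries (y), for the 31 genes in colour and all genes tested in grey, where genes beyond ± 3 are drawn at the edge. Most coloured points lie to the lower left, with HMGCS1 at -2.45 and -2.08 farthest out, and TM7SF2 and ACACA in the upper right.

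Single transcripts of the leading genes are given with libraries numbered 1 first. HMGCS1-202 was at 70.9 and 38.0 TPM against 9.38 and 5.93 TPM, and HMGCS1-201 at 36.3 and 31.4 TPM against 9.28 and 9.14 TPM. INSIG1-201 went from 54.5 and 42.7 TPM to 20.4 and 16.9 TPM. ACACA-231, that gene's longest abundant form, was at 13.2 and 13.4 TPM against 17.4 and 20.3 TPM. Kallisto shares reads between similar transcripts by estimation, so single transcripts are less certain than genes. The 17 annotated pseudogene copies of 5 members held at most 50 estimated counts in any library.

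In the main test, TGF-β1 for 1.5 h gave no call among the 31 genes. By edgeR's quasi-likelihood test 0 of 31 passed, and 0% of all genes tested did. This test had no term for replicate number, so the difference between the numbers counted as spread. The SE of the treatment log2 fold change ran from 0.11 for SREBF2 to 1.05 for HMGCS1. The absence of calls therefore does not show that these genes were unchanged. At an unadjusted p under 0.05 the counts were 0 of 31 members and 255 of all genes. DESeq2 called 0 of 31, beside 0.458% of all genes, and limma on log2(TPM + 1) called 0 of 31. With the replicate number as a block 0 of 31 passed, beside 2.27% of all genes. DESeq2 with that block called HMGCS1 alone as lower (log2 -0.44, adjusted p = 0.00359), which edgeR with the block did not (log2 -0.45, adjusted p = 0.0554). A list of 12 early TGF-β targets was set beside the members. It was chosen with earlier results of these data known, so its counts describe the libraries and are no independent check. All 12 were higher in both treated libraries than in both controls, beside 7.87% of all genes, and DESeq2 called 10 of them. ID2, an inhibitor of helix-loop-helix factors, went from 11.3 and 14.7 TPM in the controls to 168 and 111 TPM. All 12 missed edgeR's adjusted threshold without the block, and all 12 passed it with the block.

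Within the libraries numbered 1, nearly all members were lower after TGF-β1, and within those numbered 2 they were not. In replicates 1 the treated library was below its control for 28 of 31 members, beside 51.9% of all genes, with a median log2 difference of -0.30. In replicates 2 it was below for 12 of 31, beside 50.3% of all genes, with a median of 0.02. The largest differences in replicates 1 were -0.63 for HMGCS1, -0.55 for FADS2 and -0.51 for ACSS2, against -0.25, 0.02 and -0.0043 in replicates 2. INSIG1 differed by -0.41 in replicates 1 and by -0.15 in replicates 2. All 18 sterol enzymes were lower in replicates 1, and 8 of 18 in replicates 2. The 3 members higher with TGF-β1 in both numbers were SREBF1, by 0.11 and 0.09, SCAP, by 0.05 and 0.09, and ACACA, by 0.04 and 0.20.

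FASN was the only member whose treated and control libraries did not overlap on the count scale, lower by 0.13 in replicates 1 and by 0.05 in replicates 2. Such separation toward lower values was found for 8.34% of all genes, and toward higher values, where there were 0 members, for 7.87%. The median log2 difference of the 18 sterol enzymes, -0.19 with all libraries, was 0.26 without control replicate 1. Leaving out control replicate 2 gave -0.52, and leaving out TGF-β1 replicate 1 gave -0.48. The median of the fatty acid arm, -0.15, was 0.12 without control replicate 1. Control replicate 1 held the highest value for 27 of 31 members, beside 26.0% of all genes. Its level was followed by TGF-β1 replicate 1 and then by both libraries numbered 2 for 23 of 31 members, 16 of them sterol enzymes, beside 19.6% of all genes. Control replicate 1 enters both the treatment difference within replicates 1 and the replicate difference between controls, so these differences are not independent.

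**Figure D4:**
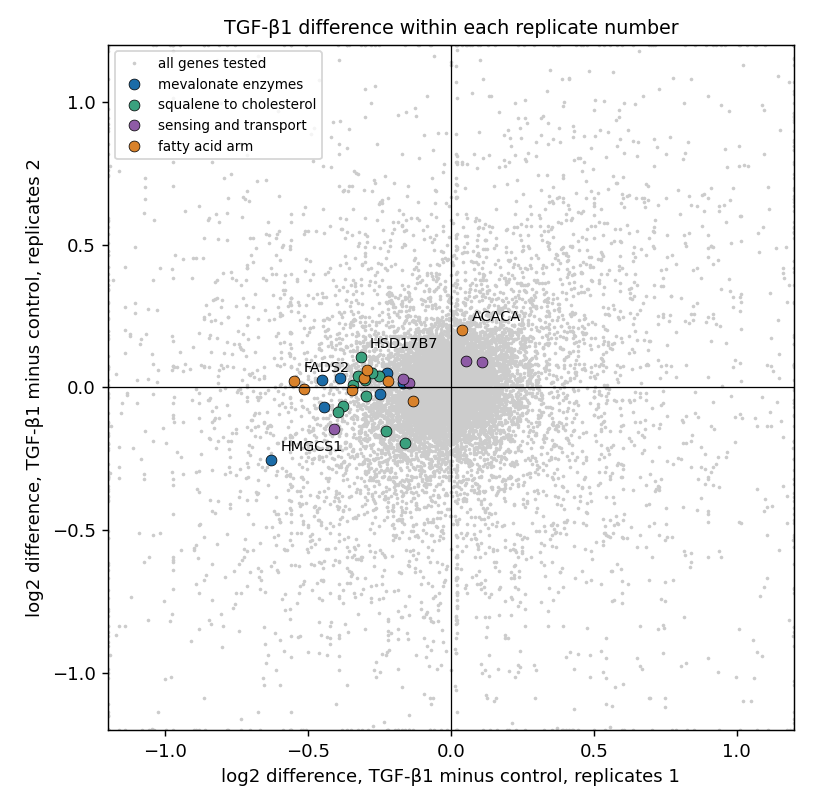
Log2 difference of TGF-β1 minus control for each gene within replicates 1 (x) and within replicates 2 (y), with the 31 genes in colour and all genes tested in grey, where genes beyond ± 1.2 are drawn at the edge. The coloured points spread to the left of 0 on the x axis, down to -0.63 for HMGCS1, and stay near 0 on the y axis.

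Genes around the pathway were called in both directions, as were genes at large. Of 20 other genes of SREBP processing and the mevalonate branches, 4 were lower and 4 higher in the libraries numbered 2 by edgeR. That is near the shares among all genes tested, 21.0% lower and 16.4% higher. The median log2 fold change of this list was -0.04. LPIN1, a phosphatidate phosphatase, rose (log2 0.64, adjusted p = 0.00361, edgeR). COQ2, of the ubiquinone branch, and NUS1, of the dolichol branch, fell by 0.39 and 0.44 on the log2 scale. PDSS2, also of the ubiquinone branch, rose by 0.24 (adjusted p = 0.0271, edgeR), and PDSS1 was not called.

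Of 15 genes of LXR response and sterol efflux, 6 were higher and 6 lower, beside 16.4% and 21.0% of all genes. SOAT1, which esterifies cholesterol for storage, fell by 0.66 on the log2 scale, from 35.2 and 32.1 TPM to 20.5 and 21.8 TPM. OSBPL5, an oxysterol-binding relative, rose by 0.48. The list therefore moved in both directions.

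Among 27 tested of 28 other genes of fatty acid synthesis and activation, 9 fell and 7 rose, beside 21.0% and 16.4% of all genes. HACD3 and ELOVL7, enzymes of elongation, fell by 0.59 and 0.69 on the log2 scale, and ACSL1, which activates fatty acids, rose by 0.63. Of 19 genes of fatty acid oxidation and PPAR response, 7 rose and 2 fell, beside 16.4% and 21.0% of all genes. HADHB and DECR1, enzymes of mitochondrial oxidation, rose by 0.59 and 0.56, from 185 and 190 TPM to 273 and 267 TPM for HADHB. PPARGC1A, a coactivator, rose from 0.250 and 0.214 TPM to 0.759 and 1.00 TPM. Without the replicate block, none of these 4 lists held a gene called by edgeR, or by DESeq2, after TGF-β1. With the block, edgeR and DESeq2 each called the same 2 genes of the oxidation and PPAR list and none of the other 3 lists. ANGPTL4, an inhibitor of lipoprotein lipase, had the largest fitted treatment difference among them, a log2 fold change of 1.28, with 1.04 in replicates 1 and 1.78 in replicates 2 (adjusted p = 1, edgeR). With the block it was higher (log2 1.40, adjusted p = 0.00527, edgeR). PDK4, a kinase that restrains pyruvate oxidation, differed by -0.38 in replicates 1 and by -0.71 in replicates 2, and was lower with the block (log2 -0.56, adjusted p = 0.0263, edgeR).

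The markers of the labelled cell type were present. None of 10 basal mammary and 4 general epithelial markers was under 1 TPM in every library, and KRT5 was at 2023 to 2385 TPM. Under 1 TPM in every library were 3 of 7 luminal, 5 of 7 fibroblast, 6 of 7 blood and endothelial, 5 of 5 adipocyte and 3 of 4 hepatocyte markers. The luminal markers summed to 246 and 236 TPM in the libraries numbered 1 and to 157 and 169 TPM in those numbered 2. The fibroblast markers summed to 19.8 to 28.5 TPM, those of blood and endothelium to 14.6 to 18.1 TPM and those of adipocytes to 0.513 to 1.05 TPM. The basal markers also differed between the numbers. By edgeR 5 of 10 were lower and 2 higher in the libraries numbered 2, beside 21.0% and 16.4% of all genes. Their sum was 10719 and 11250 TPM in the libraries numbered 1 against 7041 and 7729 TPM. The part of this shift, of the ribosomal share and of the PHF8 difference in the lower levels of the sterol enzymes was not tested. In bulk RNA, fewer cells of a type and less RNA per cell cannot be told apart.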

How the data were processed

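The 4 abundance tables were made by the authors: the submitters' processing notes name kallisto and GRCh38, and the kallisto version is not given in the sources used here. They hold deposited estimated counts and deposited TPM per transcript, from libraries made with a stranded total-RNA kit with ribosomal depletion per the labels' protocols, although the molecule label says polyA. Transcripts were joined to GENCODE release 29 (159239 of 173259 matched, and the unmatched held 2.24% to 2.38% of counts), counts and TPM were summed per gene, and count sums were rounded. The 31 members and all lists were chosen with earlier results of these data known.

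The main test was edgeR 4.0.16 (TMM, filterByExpr, quasi-likelihood, Benjamini-Hochberg over 14774 genes, threshold 0.05), run once for treatment and once for replicate number, with all 4 libraries and no covariate. Standard errors were taken from the fitted fold change and its F statistic. Within-number differences are on log2 CPM with a prior count of 2 and carry no test. TPM depends on the estimated transcript mix, so a TPM ratio can differ from the count-based fold. Genes named with values were called members, the 3 largest and 3 smallest folds, a fixed set of 6, and up to 3 smallest p-values per other list. Some genes the rule would name are not reported here. Alternatives used DESeq2 1.42.0, limma 3.58.1, RLE scaling, other filters, a length offset, a threshold of 0.01, covariates and leaving out each library. Scripts were tested on simulated data.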

Additional observations from a re-analysis of the deposited data

How the results depend on the processing

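No member reversed a call under any alternative run. For the replicate comparison, 5524 genes were called in the main test, against 3584 with limma on log2(TPM + 1), 3513 with DESeq2 and treatment as a term, 2599 at 0.01, and 3018 to 4020 when 1 library was left out. Members called lower, 22 in the main test, were 10 at 0.01 and 10 to 24 with 1 library left out. Sterol enzymes called lower, 16, were 8 at 0.01 and 8 to 16 with 1 library left out. Fatty acid genes called lower, 4, were 2 with at least 50 counts in 2 libraries, 0 at 0.01 and 0 to 6 with 1 library left out. Members called higher, 2, were 4 with at least 50 counts or with treatment as a term, 1 with DESeq2 and treatment as a term, 1 at 0.01 and 1 to 2 with 1 library left out. A stricter threshold leaves fewer calls by construction, and for the other moves the cause was not tested.

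For TGF-β1, 0 genes were called in the main test, against 15 with no low-count filter, 90 with DESeq2, 3 with the length offset and 0 to 20 with 1 library left out. The replicate block raised this to 335 genes, and DESeq2 with the replicate block to 245, among them 1 member and 1 sterol enzyme, HMGCS1. Members and sterol enzymes called stayed at 0 to 0 with 1 library left out. The labels do not say that a number pairs libraries. Across 14774 genes, the deviations of same-numbered libraries correlated at 0.66, a hint from the data and not from the design. Of 806 values of members under alternatives, 48 changed sign without a call, 44 of them when 1 library was left out.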
